A study of Mus musculus with 15 samples.

Results

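The 6 cyclin-dependent kinase (CDK) inhibitor genes Cdkn2a, Cdkn2b, Cdkn2c, Cdkn2d, Cdkn1a and Cdkn1b were examined for H3K27ac in a mouse tumor in which Cdkn2a itself was floxed. Peaks were taken from 1 deposited list when they overlapped the span of a gene in the RefSeq annotation of mm10 or the 50 kb on either side, by at least 1 bp. A peak within 2 kb of a start site of the gene was called a promoter peak, another peak over the gene a gene body peak, and the rest flank peaks. The windows of the 6 genes held 145 different peaks of the 122375 in the list.

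The tumors model fusion-positive rhabdomyosarcoma (FP-RMS), a sarcoma with muscle features in which PAX3-FOXO1 (P3F), a fusion of a PAX and a forkhead factor, is the driver. MCP tumors carried Myf6-Cre and TCP tumors Tek-Cre. Both groups shared the floxed alleles Cdkn2a(Flox/Flox), the fusion alleles given as Pax(3P3F/P3F), and the reporter R26-tdTom, so neither group had Cdkn2a without lox sites as a control. Cre acted in cells that expressed Myf6, a myogenic factor, in MCP mice, and in endothelial and hematopoietic cells in TCP mice. No ages are given in the labels. Of the 15 CUT&RUN libraries in the series, 9 were H3K27ac libraries (6 MCP, 3 TCP) and the rest IgG controls (3 of each). CUT&RUN frees the DNA around a bound antibody with a nuclease, and acetylation of histone H3 at lysine 27 marks enhancers and promoters that are in use. The list belongs to the library MCP H3K27ac replicate 5, whose label does not name the tumor, so no value has a replicate, no test was made and no comparison of MCP with TCP was possible here. The study sorted live tumor cells before nuclei were made. Of the marker genes looked up, 1 of 8 myogenic genes (Myf6), 0 of 5 endothelial genes and 1 of 4 leukocyte genes (Cd68) had a promoter peak, against 45.6% of protein-coding genes. The defining myogenic markers Myod1 and Myog had no promoter peak. Within 50 kb, Myod1 had 11 peaks, Myf6 36, Myf5 29, Chrna1 17, Des 15 and Cdh15 7, and Myog and Pax7 had 0. The endothelial genes had 0 to 15 and the leukocyte genes 2 to 24. Myf5 and Myf6 are both on chromosome 10, and any peak that their windows share is counted for each. The part of cell composition in the results below was not tested.

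CDK inhibitors hold back the cell cycle. The INK4 proteins bind CDK4 and CDK6 and keep them from joining D cyclins, and the CIP/KIP proteins p21 (Cdkn1a) and p27 (Cdkn1b) bind cyclin-CDK complexes, mainly those of CDK2. Of the INK4 genes, Cdkn2a encodes p16INK4a, Cdkn2b p15INK4b, Cdkn2c p18INK4c and Cdkn2d p19INK4d. Cdkn2a has a second start site, from which another first exon (exon 1 beta) gives the ARF protein in a different reading frame. ARF restrains MDM2, which degrades p53, and p53 turns on Cdkn1a. Cdkn2a and Cdkn2b lie side by side, are silenced together by Polycomb in many cells, and are often lost in tumors. In the widely used conditional Cdkn2a allele, lox sites flank exons 2 and 3, which p16INK4a and ARF share. The positions of the lox sites are not given in the sources used here.

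RefSeq (GRCm38.p6, the mm10 build) has 9 promoter sequences for the 6 genes, each from 250 bases before a start site to 50 bases from it. The bases before 8 of these start sites are shown. The 7 start sites that had a promoter peak are among them, and the first start of Cdkn1a, which had none, is shown beside the second because they differ in base composition and motifs. They are written in the direction of the gene. Capitals mark matches, on either strand, to any of the motifs searched, which were the E-boxes CAGCTG and CACCTG (bound by MYOD1 and related factors), the forkhead motif GTAAACA, the E2F motif TTTNNCGC, the SP/KLF motif GGGCGG, the AP-1 motif TGANTCA, the PAX paired domain motif GTCACGC and the p53 response element. For the last, up to 13 bases were allowed between its parts. Matches in the 50 bases from a start site were counted but are not shown.
Cdkn2a, ARF start, chr4:89294620-89294869, minus strand: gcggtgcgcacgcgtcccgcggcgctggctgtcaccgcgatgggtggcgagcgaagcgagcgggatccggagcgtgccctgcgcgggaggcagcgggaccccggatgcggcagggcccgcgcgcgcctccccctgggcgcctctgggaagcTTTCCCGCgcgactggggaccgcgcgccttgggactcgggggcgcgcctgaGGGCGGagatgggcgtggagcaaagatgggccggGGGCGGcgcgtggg
Cdkn2a, p16INK4a start, chr4:89282193-89282442, minus strand: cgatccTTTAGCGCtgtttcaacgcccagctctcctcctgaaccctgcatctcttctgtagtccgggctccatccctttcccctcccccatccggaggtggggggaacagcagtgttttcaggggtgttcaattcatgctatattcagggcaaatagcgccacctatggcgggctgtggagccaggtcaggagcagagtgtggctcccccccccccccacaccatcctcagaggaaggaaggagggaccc
Cdkn2b, chr4:89311033-89311282, minus strand: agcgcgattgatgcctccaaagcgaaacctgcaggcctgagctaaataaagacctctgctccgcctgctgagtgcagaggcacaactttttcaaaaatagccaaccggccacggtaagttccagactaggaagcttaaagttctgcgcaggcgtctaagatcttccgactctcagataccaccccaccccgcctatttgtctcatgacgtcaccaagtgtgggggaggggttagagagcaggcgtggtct
Cdkn2c, upstream start, chr4:109666757-109667006, minus strand: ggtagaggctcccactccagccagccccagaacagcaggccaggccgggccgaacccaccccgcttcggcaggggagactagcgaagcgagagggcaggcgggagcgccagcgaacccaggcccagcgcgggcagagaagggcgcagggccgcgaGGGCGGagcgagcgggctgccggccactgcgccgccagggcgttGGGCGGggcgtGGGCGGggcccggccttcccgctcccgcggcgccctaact
Cdkn2c, downstream start, chr4:109665373-109665622, minus strand: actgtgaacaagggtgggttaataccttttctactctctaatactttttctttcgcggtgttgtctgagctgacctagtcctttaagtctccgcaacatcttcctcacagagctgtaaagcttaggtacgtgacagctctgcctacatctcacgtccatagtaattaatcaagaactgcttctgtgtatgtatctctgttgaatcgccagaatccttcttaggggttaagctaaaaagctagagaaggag
Cdkn1a, the first start, chr17:29090729-29090978, plus strand: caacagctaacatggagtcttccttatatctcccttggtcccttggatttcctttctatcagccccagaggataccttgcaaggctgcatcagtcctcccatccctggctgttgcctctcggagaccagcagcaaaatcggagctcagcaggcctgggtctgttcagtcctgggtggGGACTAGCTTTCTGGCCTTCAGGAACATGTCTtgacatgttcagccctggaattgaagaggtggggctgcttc
Cdkn1a, the second start, chr17:29093519-29093768, plus strand: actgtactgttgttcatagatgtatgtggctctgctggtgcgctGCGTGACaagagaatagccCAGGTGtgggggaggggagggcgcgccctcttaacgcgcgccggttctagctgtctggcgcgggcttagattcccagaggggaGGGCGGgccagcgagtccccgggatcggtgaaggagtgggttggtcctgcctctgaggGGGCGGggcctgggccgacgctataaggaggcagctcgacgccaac
Cdkn1b, chr6:134920151-134920400, plus strand: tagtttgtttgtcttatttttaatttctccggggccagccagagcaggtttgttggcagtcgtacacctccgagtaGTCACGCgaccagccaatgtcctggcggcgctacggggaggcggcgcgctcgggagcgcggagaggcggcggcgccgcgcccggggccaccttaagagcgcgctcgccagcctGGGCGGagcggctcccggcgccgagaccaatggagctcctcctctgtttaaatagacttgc

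Of the 9 promoters, 8 were above the median GC content of all promoters and 1, the downstream start of Cdkn2c, was below it. Over the full 300 bases, GC content was 77.0% at the ARF start, 60.3% at the p16INK4a start, 57.7% at Cdkn2b, 73.3% at the upstream and 44.0% at the downstream start of Cdkn2c, 66.3% at Cdkn2d, 62.0% at Cdkn1b, and 54.7% and 64.7% at the first and the second start of Cdkn1a, against a median of 52.7% over 32851 RefSeq promoters. The ratio of observed to expected CpG separated them further. It was 1.04 at the ARF start and 0.442 at the p16INK4a start of the same gene, and 0.0892 and 0.786 at the first and the second start of Cdkn1a. The others had 0.722 (Cdkn2b), 0.823 and 0.553 (the upstream and downstream starts of Cdkn2c), 0.681 (Cdkn2d) and 1.04 (Cdkn1b), with a median of 0.384 over all promoters. The SP/KLF motif was found in 7 of the 9 promoters of the 6 genes and in 35.7% of all promoters. The E2F motif was found in 2, which were the ARF and p16INK4a promoters (positions -99 to -92 and -244 to -237 from the start site), and in 5.17% of all promoters. The PAX paired domain motif was found in 2, Cdkn1b (-174 to -168) and the second start of Cdkn1a (-206 to -200), and in 2.09% of all promoters. The p53 response element was found in 1, the first start of Cdkn1a (-73 to -42), and in 0.0731% of all promoters. The E-boxes were found in 1 promoter each, both of Cdkn1a, and the forkhead and AP-1 motifs in none. A match is a description of letters and not a binding site.

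Listed peaks differed widely in number between the genes. The window of Cdkn2a held 77 peaks, that of Cdkn2b 59, that of Cdkn1b 28, that of Cdkn2c 19 and that of Cdkn1a 4. At Cdkn2d 15 were listed, but peak names are numbered along the genome and 8 numbers are absent in the interval that holds the gene, so neither its count nor its promoter can be read. The Cdkn2a and Cdkn2b windows shared 57 peaks, which is 74.0% of the Cdkn2a peaks and 96.6% of the Cdkn2b peaks, and together they held 79. Over all 21774 protein-coding genes the median window held 7 peaks (quartiles 1 and 16), and 76.3% of the genes had any. As many peaks as Cdkn2a or more were found for 0.684% of the genes, and the shares were 1.39% for Cdkn2b, 10.2% for Cdkn1b, 20.8% for Cdkn2c and 64.1% for Cdkn1a. Peaks covered 18.0% of the Cdkn2a window, 18.3% of the Cdkn2b window, 12.5% of the Cdkn1b window, 8.13% of the Cdkn2c window and 0.475% of the Cdkn1a window, against a median of 1.25% over all genes. Cdkn2a and Cdkn2b stood near the upper end of all genes by these counts, and Cdkn1a below the median gene. The order rests on many weak peaks. At a -log10 q of at least 10 it was 11 at Cdkn1b, 10 at Cdkn2b, 9 at Cdkn2a, 7 at Cdkn2c and 0 at Cdkn1a, and 1.72% of genes had at least as many as Cdkn1b, 2.38% as Cdkn2b and 3.30% as Cdkn2a.

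**Figure D1:**
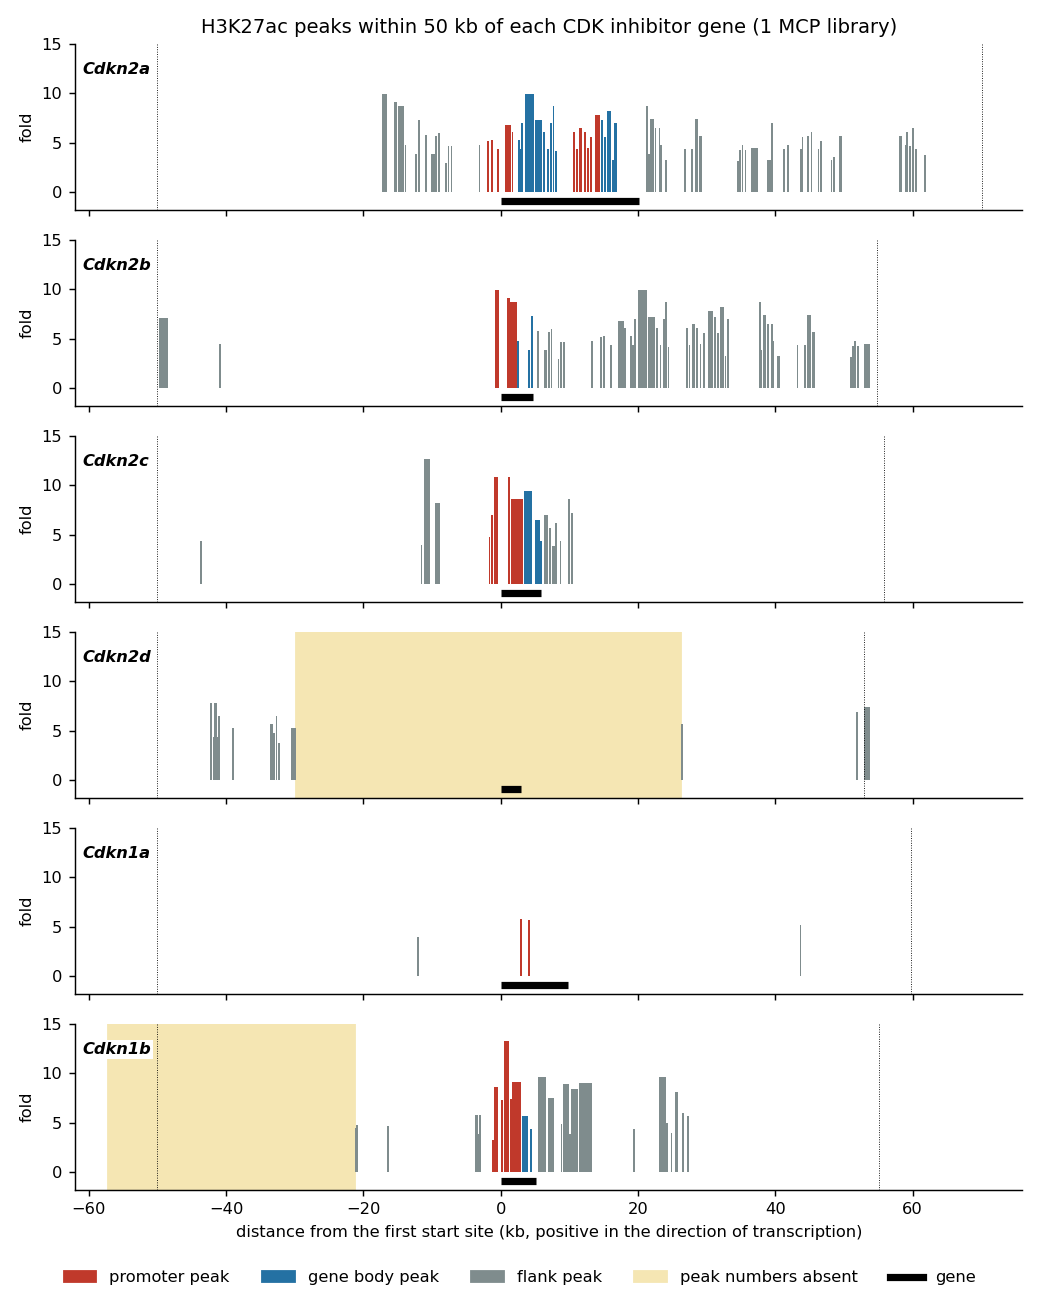
Fold enrichment (vertical axis, ratio) of each listed H3K27ac peak against its distance in kb from the first start site of the gene, for the 6 genes. Bars are peaks, narrow ones widened to be visible, red at a promoter, blue over the gene and grey in the flank. Dotted lines mark the ends of the windows and yellow bands the intervals with absent peak numbers, 8 around Cdkn2d and 1 upstream of Cdkn1b. Cdkn2a has 77 bars and Cdkn1a 4.

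**Figure D2:**
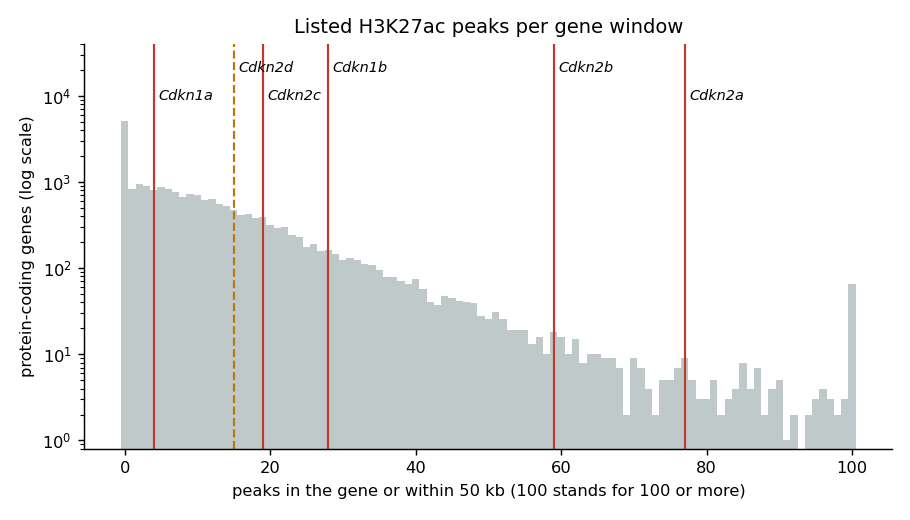
Number of protein-coding genes (log axis) by the number of listed peaks over the gene and its flanks of 50 kb. Vertical lines mark the 6 genes, from 4 peaks at Cdkn1a to 77 at Cdkn2a, and the dashed line marks Cdkn2d, whose 15 peaks leave out any at 8 absent numbers.

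Single peaks of the 6 genes were about as strong as other peaks of the list. Fold enrichment is the ratio of scaled fragments to local background at the summit, with the same constant added to both. Its median was 5.65 over the 145 peaks (range 2.90 to 13.2) and 5.22 over the whole list. Their median width was 192 bp (range 79 to 1803 bp), against 163 bp. The number of fragments over a summit was recovered from the columns of the list, and its median was 14 for these peaks and 13 for the whole list, so a typical peak rests on few fragments. In a library of many cells, a mark in fewer cells and a weaker mark in each cell cannot be told apart. Of the 145 peaks, 57.9% had a -log10 q of at least 5, against 47.9% of the list.

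Each of the 5 genes whose promoter can be read had a promoter peak, with 28 in all, whereas 45.6% of protein-coding genes had any. The counts were 12 for Cdkn2a, 3 for Cdkn2b, 5 for Cdkn2c, 2 for Cdkn1a and 6 for Cdkn1b. The strongest promoter peak had a fold enrichment of 13.2 at Cdkn1b (95% interval 9.26 to 18.4), 10.8 at Cdkn2c (7.11 to 15.9), 9.96 at Cdkn2b (6.42 to 14.8), 7.80 at Cdkn2a (4.75 to 12.2) and 5.75 at Cdkn1a (3.39 to 9.22). The intervals are exact Poisson intervals of the recovered fragments and cover counting error only. They hold the local background fixed, so its own counting error is left out. Each value is also the highest of the gene's promoter peaks, from 2 at Cdkn1a to 12 at Cdkn2a, and the intervals leave this choice out. Neighbors in this order have overlapping intervals. Only the intervals of Cdkn1b and Cdkn1a, at its ends, do not overlap, by a narrow margin (9.26 against 9.22). Among the 9920 genes with a promoter peak the median of the strongest was 7.37, and 5.64% of them were at least as strong as Cdkn1b, 15.6% as Cdkn2c, 21.8% as Cdkn2b, 43.7% as Cdkn2a and 73.3% as Cdkn1a. Cdkn2a had the most peaks of the 6 genes, while its strongest promoter peak lay close to that of the median gene.

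**Figure D3:**
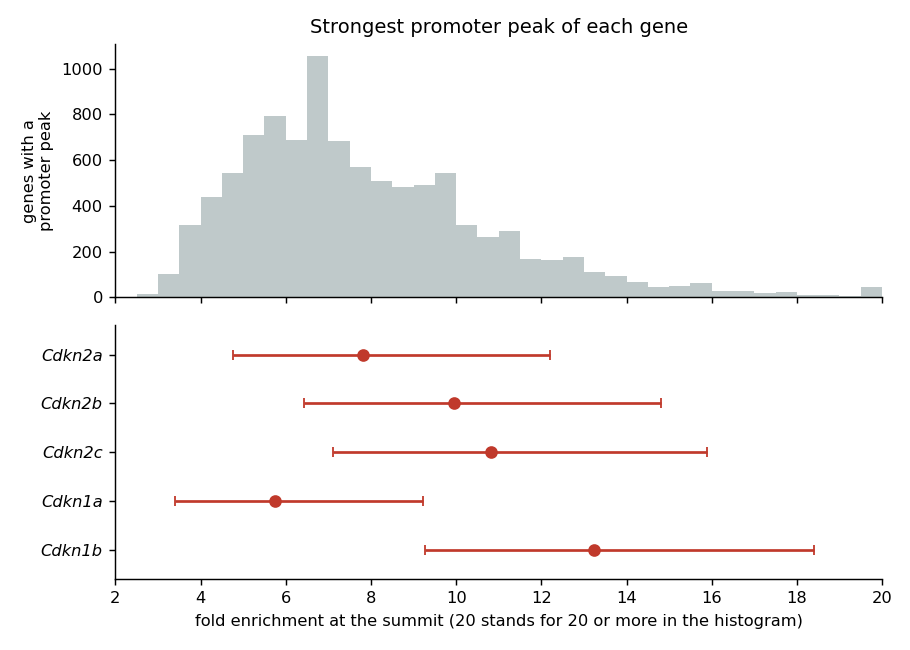
Fold enrichment of the strongest promoter peak, as a histogram over the 9920 protein-coding genes that have one (top) and for the 5 genes with a readable promoter (bottom). Points are the values of the list and bars the 95% Poisson intervals of counting error. Cdkn1b at 13.2 lies in the upper tail and Cdkn1a at 5.75 below the median of 7.37.

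Promoter peaks lay beside the start sites rather than on them. The 7 start sites of these genes that had a promoter peak were covered by a peak in 1 case, the downstream start of Cdkn2c, and among all start sites of protein-coding genes with a promoter peak 9.36% were inside a peak. Over those start sites the covered share rose to 26.0% at 400 bp upstream and to 39.6% at 700 bp downstream. At Cdkn1b the nearest peaks began 412 bp upstream and 89 bp downstream of the start, at Cdkn2b 220 bp and 868 bp, at the ARF start 318 bp and 673 bp, and at the p16INK4a start 156 bp and 191 bp. The upstream start of Cdkn2c had its nearest peaks 429 bp upstream and 1089 bp downstream.

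**Figure D4:**
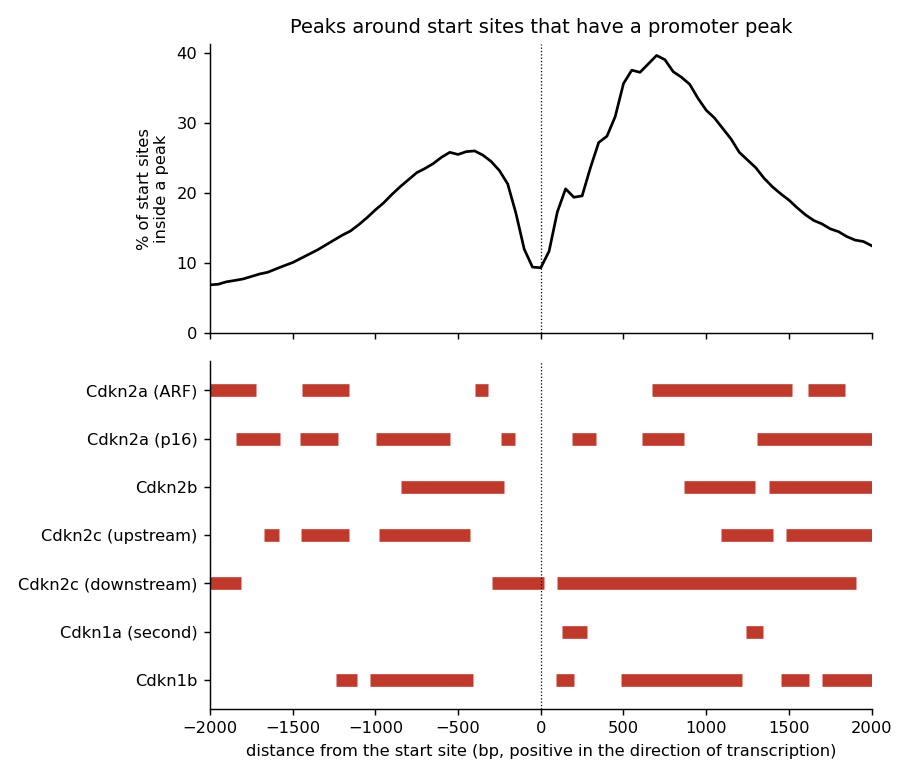
Top, share of start sites inside a peak (percent) by distance from the start site in bp, over the 26720 start sites of protein-coding genes that have a promoter peak, with 9.36% at the start site and 39.6% at 700 bp downstream. Bottom, the peaks (red) around the 7 start sites of the CDK inhibitor genes that have one, with a gap at the start site in 6 of them.

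At Cdkn2a, the gene of p16INK4a and ARF, the 12 promoter peaks fell into 7 at the p16INK4a start (chr4:89282192) and 5 at the ARF start (chr4:89294619). The strongest, with a tie in the fifth place, were led by the peak at chr4:89280146-89280887, in the intron between exons 1 alpha and 2, with 17 fragments and a fold enrichment of 7.80. The next was chr4:89293099-89293946, 1111 bp downstream of the ARF start, at 6.82 with 15 fragments. It was followed by chr4:89282738-89283189 at 6.51 with 14 fragments, by chr4:89282348-89282434 at 6.10 with 16, and by 2 peaks at 6.08 with 13 fragments each. The ARF start also lies 561 bp from the start of Gm12610, a long noncoding RNA gene on the other strand, so 4 of its 5 promoter peaks are promoter peaks of Gm12610 as well and the mark cannot be assigned to either gene. Peaks did not cover the exons: exons 1 beta, 2 and 3 had no base inside a peak, and 16 of the 207 bases of exon 1 alpha did.

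Peaks were dense in the introns of Cdkn2a. In the 12141 bp between exon 1 alpha and exon 1 beta lay 16 peaks, which covered 50.0% of the bases with a median fold of 6.09. The 5000 bp between exon 2 and exon 1 alpha held 8 peaks, which covered 54.5% with a median fold of 6.25. The strongest peak over the gene was chr4:89289716-89291062 in the intron after exon 1 beta, 1347 bp wide, 4295 bp downstream of the ARF start by its summit, with 22 fragments (95% interval 13.8 to 33.3), a fold enrichment of 9.96 and a -log10 q of 14.7. Its 201 bases around the summit, shown because it is the strongest peak over the gene, held none of the motifs:
Cdkn2a intron, chr4:89290224-89290424, minus strand: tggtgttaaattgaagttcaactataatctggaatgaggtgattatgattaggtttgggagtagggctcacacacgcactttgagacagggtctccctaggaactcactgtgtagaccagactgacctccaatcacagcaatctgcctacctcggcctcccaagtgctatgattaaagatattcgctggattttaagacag

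No peak was listed between chr4:89273394 and chr4:89277728. This interval of 4335 bp holds exon 3 (chr4:89274473-89274774), exon 2 (chr4:89276645-89276985) and the intron between them. In the widely used conditional allele, lox sites flank these exons. The lox positions in the allele used here are not given, so the interval cannot be set against them. Peaks stood at both of its ends. On the side of exon 1 alpha was a peak at chr4:89277729-89278085 with 15 fragments and a fold enrichment of 6.94, and beyond exon 3 a peak at chr4:89273165-89273393 with 19 fragments and a fold enrichment of 8.67. No peak number is absent in the window. The interval was the 5th longest without a peak in the joined windows of Cdkn2a and Cdkn2b. Longer were intervals of 39949 bp upstream of Cdkn2b, 7551 bp beyond that, and 8304 bp and 5176 bp beyond exon 3, and an interval of 3973 bp between the genes was nearly as long. Peaks were thus listed at both promoters of the gene and not over the exons that its proteins share. The list holds no read depth, so whether DNA of these exons was present in the sorted cells was not tested.

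**Figure D5:**
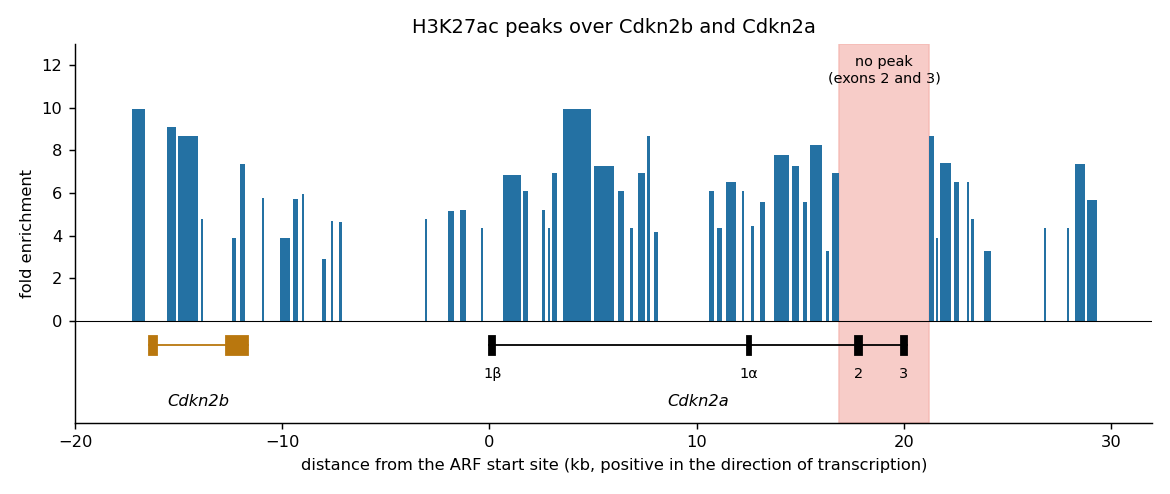
Fold enrichment (vertical axis, ratio) of the H3K27ac peaks over Cdkn2b and Cdkn2a against distance in kb from the ARF start site, with exons below (black Cdkn2a, brown Cdkn2b). The shaded interval of 4335 bp, which holds exons 2 and 3, has no peak, with peaks of 6.94 and 8.67 at its ends.

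Cdkn2b, the gene of p15INK4b, had 3 promoter peaks, and all had a -log10 q of at least 10. The strongest was chr4:89311252-89311874, just upstream of the start, with 22 fragments (13.8 to 33.3) and a fold enrichment of 9.96. Inside the gene were chr4:89309737-89310164 with 20 fragments and 9.10, and chr4:89308697-89309654 with 19 fragments and 8.67. The gene has 2 exons, of which the exon at the start had no base inside a peak and the last had 447 of 1026. Upstream of the strongest promoter peak no peak followed for 39949 bp. The flank on that side held 3 peaks in 50 kb, the strongest promoter peak among them, which covered 4.06%, whereas the flank beyond exon 3 of Cdkn2a held 36 peaks, which covered 16.5%. Between the genes, 11 peaks covered 18.0% of 11669 bp, with a median fold of 4.79. The summit window of the promoter peak is shown because the dense peaks of both genes end there, and it held none of the motifs:
Cdkn2b promoter peak, chr4:89311273-89311473, minus strand: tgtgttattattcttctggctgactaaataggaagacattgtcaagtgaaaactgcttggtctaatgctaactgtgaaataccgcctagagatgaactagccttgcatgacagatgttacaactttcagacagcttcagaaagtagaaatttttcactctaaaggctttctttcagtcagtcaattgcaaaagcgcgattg

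Cdkn2c, the gene of p18INK4c, had 5 promoter peaks, with 4 at a -log10 q of at least 5. Those at chr4:109665354-109665667 and chr4:109667185-109667733 had 24 fragments each (15.4 to 35.7) and a fold enrichment of 10.8, and the first covered the downstream start site. The widest, chr4:109663469-109665271, ran for 1803 bp into the gene with 19 fragments and a fold enrichment of 8.67. The others were chr4:109667917-109668205 at 6.94 with 15 fragments and chr4:109668340-109668428 at 4.79 with 10. Over the gene body lay 3 more peaks, up to a fold of 9.43. The strongest peak of the window was in the flank, at chr4:109677084-109677942, with 42 fragments (30.3 to 56.8) and a fold enrichment of 12.7, and it is a promoter peak of Faf1, the neighboring gene. Of its 11 flank peaks, 9 lay at the promoter of another gene (Faf1 or 9630013D21Rik).

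Cdkn2d, the gene of p19INK4d, had no listed peak over its span at chr9:21288459-21291421, and 8 peak numbers are absent between chr9:21265112 and chr9:21321268. The content of those peaks is not known here, so the state of its promoter is not stated. The 15 listed peaks were all in the flank, 5 of them at the promoter of another gene. The strongest were 2 peaks of 17 fragments and a fold enrichment of 7.80 in an intron of Slc44a2, at chr9:21332807-21333141 and chr9:21333485-21333726, and the peak at chr9:21237691-21238505 in an exon of Keap1, with 24 fragments and 7.41.

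Cdkn1a, the gene of p21, had the fewest peaks. Its first start (chr17:29090979), the promoter with the p53 response element match, had no promoter peak, and the nearest peaks were 11955 bp upstream and 2919 bp downstream. At the second start (chr17:29093769) lay chr17:29093898-29094049, 129 bp downstream, with 15 fragments (8.40 to 24.7) and a fold enrichment of 5.75, and chr17:29095008-29095114 with 18 fragments (10.7 to 28.4) and 5.64. Both are in the intron after the exon at that start. The remaining peaks were in the flank, chr17:29078923-29079024 in an exon of Trp53cor1, a noncoding RNA gene that p53 turns on, with 8 fragments and 3.93, and chr17:29134557-29134716 in an intron of Rab44, with 11 fragments and 5.22. Both flank peaks lay at a promoter of the other gene named. No exon of Cdkn1a had a base inside a peak and no peak number is absent in the window. The peaks of the window had 8 to 18 fragments, and no peak of the whole list had fewer than 7, so a mark at the first start below that would not be detectable at this depth. A promoter peak of Cdkn2a, chr4:89296343-89296618, held 3 E-boxes CACCTG in its summit window. Of all summit windows 12.4% held any, and windows with 3 were not counted over the list. The summit window of the first Cdkn1a promoter peak is shown because it also held 3, at positions -23 to -18, 22 to 27 and 37 to 42 from the summit:
Cdkn1a intron, chr17:29093902-29094102, plus strand: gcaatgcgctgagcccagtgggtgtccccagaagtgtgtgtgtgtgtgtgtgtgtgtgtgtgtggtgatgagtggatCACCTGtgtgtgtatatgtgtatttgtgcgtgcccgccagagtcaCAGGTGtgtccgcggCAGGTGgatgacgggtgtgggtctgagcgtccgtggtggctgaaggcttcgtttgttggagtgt

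Cdkn1b, the gene of p27, had the promoter peak with the highest fold enrichment of the readable genes. The interval of that peak overlapped those of Cdkn2c, Cdkn2b and Cdkn2a. Of the 6 promoter peaks of Cdkn1b, 5 had a -log10 q of at least 5. The strongest was chr6:134920888-134921619, with its summit in an intron 1121 bp downstream of the start, 33 fragments (22.7 to 46.3), a fold enrichment of 13.2 and a -log10 q of 25.2. The next were chr6:134922102-134923313 with 31 fragments and 9.15, chr6:134919370-134919989 upstream of the start with 28 fragments and 8.59, chr6:134921852-134922020 with 18 fragments and 7.42, and chr6:134920490-134920600 with 40 fragments and 7.28. The last shows how background enters the ratio. It had the most fragments of the 6, but the local background there was 4.00 fragments against 1.28 at the strongest. The summit window of the listed promoter peak with the highest fold enrichment of the 6 genes held none of the motifs:
Cdkn1b intron, chr6:134921422-134921622, plus strand: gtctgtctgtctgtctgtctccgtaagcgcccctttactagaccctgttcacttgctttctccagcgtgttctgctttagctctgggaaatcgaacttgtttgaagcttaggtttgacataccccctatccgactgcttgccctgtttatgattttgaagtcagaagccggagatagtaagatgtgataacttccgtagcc

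Downstream of Cdkn1b the peaks went on. Of its 20 flank peaks, 7 lay at the promoter of another gene (Lockd, Gpr19 or 2810454H06Rik). Beyond the end of the gene lay 14 of the 20, 11 of them with the summit in an intron of Lockd, a long noncoding RNA gene. They included chr6:134925805-134926956 with 23 fragments and a fold enrichment of 9.63, chr6:134943399-134944442 in an intron of Lockd with 25 fragments and 9.61, and chr6:134931869-134933669, 1801 bp wide, with 50 fragments (37.1 to 65.9), the most of any peak in the 6 windows, and a fold enrichment of 9.05. Upstream, 1 peak number is absent between chr6:134863248 and chr6:134899197, so the count of 28 may be short by 1.

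For most motifs the share of summits that held a match was near that of the whole list. In 201-base windows around the 145 summits, CAGCTG was found in 9.66% (10.0% of all peaks), CACCTG in 10.3% (12.4%), the AP-1 motif in 10.3% (8.05%), the forkhead motif in 4.14% (3.27%), the E2F motif in 4.14% (1.67%) and SP/KLF in 3.45% (4.14%). The PAX paired domain motif and the p53 response element were found in 0 of 145, against 0.539% and 0.0613% of all windows. These shares rest on at most 15 windows each.

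The other genes of the pathway were looked up in lists by role. Of 42 genes, 33 (78.6%) had a promoter peak, against 45.6% of protein-coding genes, and the median of their strongest was 6.98, against 7.37 over all genes with one. The list counts were 4 of 5 for D cyclins and their kinases, 4 of 4 for E and A cyclins with Cdk2, and 3 of 3 for pocket proteins. They were 6 of 8 for E2F factors and 3 of 3 for the ARF-p53 axis (Mdm2, Mdm4 and Trp53). A list labeled p27 turnover (Skp2, Cks1b, Cul1 and Fbxw7) had 4 of 4, and whether each of these acts on p27 was not tested. Repressors of the Cdkn2a locus had 3 of 6 and activators of the CDK inhibitor genes 6 of 8. The strongest promoters were those of Kdm6b, a demethylase that removes the Polycomb mark, at 12.99, of Rbl2, the pocket protein p130, at 12.1, and of Fbxw7, a ubiquitin ligase subunit, at 10.8. Without a promoter peak were Cdkn1c (the remaining CIP/KIP gene), Ccnd2, E2f2, E2f8, Bmi1, Tbx2, Tbx3, Smad3 and Myod1. Cdkn1c also had 0 peaks within 50 kb, unlike Cdkn1a with 4 and Cdkn1b with 28.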

How the data were processed

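CUT&RUN for H3K27ac and IgG was done on nuclei of sorted tumor cells, and 1 peak list, that of the library MCP H3K27ac replicate 5, was used. The library was identified by a number in the peak names that occurs in the description of this sample alone. Per the study's methods, the authors aligned reads with bowtie to mm10, removed reads in problematic regions and near Col19a1, and called peaks against IgG. The methods name an early MACS, and the submitters' processing notes name BWA, SAMtools and MACS2. The list itself is labeled as a MACS2 list, so it may differ from the peaks described in the methods. Its aligner, read filters and caller version are not settled here. For each peak, the deposited list holds a score, a fold enrichment, and the -log10 p-value and -log10 q-value of the authors' caller. The fold enrichment is a ratio of scaled fragments to local background at the summit, with 1 added to both. The score was the whole part of 10 times the -log10 q in 100% of the peaks. The largest q was 0.0471.

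The 6 genes and all gene lists were chosen with earlier results of these data known. Start sites were those of all RefSeq transcripts, predicted ones included. Fragments were recovered by solving fold and p for a whole number with 1 scale of 0.885, with a local background no lower than 1.05, and a solution within 0.002 fragments was found for all 145 peaks. With the scale 3% lower or higher, 0.125% and 1.45% of a sample of the list were solved. These numbers are inferred from the caller's formula, and since no molecular identifiers were used, intervals cover counting error only. The depth of the library is unknown. The steps were tested on simulated data. Genes were named by a rule: the 6 genes, up to 5 promoter peaks and the 3 strongest peaks of each, other genes where a peak lay, and the 3 strongest and the unmarked genes of the pathway lists. Exceptions were chosen after values were seen. They are the interval without peaks over exons 2 and 3 with the peaks at its ends, and the peak at Trp53cor1. The peak with the most fragments downstream of Cdkn1b is another. So is the Cdkn2a promoter peak named for the 3 E-boxes in its summit window, which is outside the 5 strongest. Peaks of 1 library are not replicates, so no p-value was computed. Python 3.11.15 was used with numpy 2.4.6, pandas 2.3.3, scipy 1.17.1 and matplotlib 3.10.9.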

Additional observations from a re-analysis of the deposited data

How the results depend on the processing

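All alternatives were planned except leaving out genes whose promoter touches absent peak numbers, which was chosen after seeing the data. The 145 peaks in the 6 windows became 84 at a -log10 q of at least 5, 31 at a -log10 q of at least 10 and 58 after merging peaks within 500 bp. The 28 promoter peaks became 11 at a -log10 q of at least 10, 15 with promoter windows of 1 kb and 11 after merging. The share of protein-coding genes with a promoter peak, 45.6% (Wilson 95% interval 44.9 to 46.2%), became 38.0% and 22.8% at the same limits on q and 43.6% with windows of 1 kb, and 45.9% without genes at absent numbers. The Wilson interval treats genes as independent, though neighbors can share peaks, and it does not cover differences between libraries. A value was held to its interval where it had one, and otherwise to a change of at most 1.5 times. Of the values that summarize the 6 genes or all genes, 11 stayed within this limit and 9 did not. Of the values for single genes, 53 did so and 28 did not. All fold enrichments of the strongest promoter peaks were among the 53, but little could move them. They were varied only by the place of the summit, the promoter window of 1 kb and the choice of start sites. These settings decide which peak is taken and leave its fold as it is. Limits on q and merging were not applied to the fold enrichments. With a flank of 25 kb the window counts fell from 59 to 35 at Cdkn2b and from 15 to 1 at Cdkn2d. Counts of peaks thus depend on the limit on q, on merging, on the promoter window (12 to 6 at Cdkn2a with 1 kb) and on the flank. At a -log10 q of at least 10 Cdkn1a had no promoter peak, while the other 4 readable genes kept at least 1. No paired analysis was possible because a single library gave the peaks. The lowest peaks of the 6 genes rest on 8 fragments and those of the whole list on 7, and marks below that were not detectable at this depth.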
